A study of Mus musculus with 41 samples.

Results

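MicroRNAs (miRNAs) in the lungs of mice that inhaled titanium dioxide nanoparticles (nanoTiO2) were compared with those of mice that breathed filtered air. The comparison used the 1-colour miRNA arrays labelled as lung, 7 from exposed and 6 from control mice, which are 13 of the 41 arrays in the series. Each array held small-RNA-enriched RNA from sections of the left lung of 1 mouse. All mice were female C57BL/6BomTac by the study's methods (C57BL/6 in the labels, C57BL/7 in that of control 20), 11 to 13 weeks old, and had been time-mated without conceiving, so both groups share that history. The exposed mice inhaled nanoTiO2 by whole-body exposure for 1 h a day on 11 days, at 40 mg/m3 by the exposure label and 42.4 mg/m3 by the exposure protocol. The control mice breathed filtered air on the same schedule, and all were killed 5 days after the last exposure. The table held values for 560 of 567 mouse miRNA entries. An array's negative-control spots set a limit, their trimmed mean with 3 trimmed SDs added, above which a median signal counted as present. The 214 miRNAs with a present signal on 6 or more of 13 arrays were tested. A miRNA is described as changed where its adjusted p in limma was below 0.05.

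A miRNA is a short RNA, cut from a hairpin precursor, that pairs with messenger RNAs and lowers their translation or stability. Pairing rests mainly on the seed, bases 2 to 8 of the mature miRNA, so miRNAs with the same seed are grouped as a family. In the lung, the miR-34 and miR-449 families are abundant in multiciliated airway epithelium, where they act in ciliogenesis, the miR-200 family marks epithelium generally, and miR-21, miR-146 and miR-155 are well-known inducible miRNAs of inflammation.

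The sequences of the miRNAs that carried the comparison are given first, because 3 of the 5 that changed belong to the miR-34 and miR-449 group and the other groups hold close relatives that did not all change. They come from RefSeq on GRCm38.p6, written 5′ to 3′ with the seed in capitals, and 36 of 40 array names looked up had an entry. The changed miR-34c and miR-135b had none there, so their sequences are not given and their seeds are not compared. The mature sequence of miR-449a lies at chr13:113037549-113037570 on the plus strand, inside Cdc20b. That of miR-34b-5p lies at chr9:51103610-51103632 on the minus strand, inside the overlapping genes Hoatz and Btg4, and that of miR-34c* at chr9:51103044-51103065. The hairpins of miR-34b and miR-34c lie 451 bases apart on the same strand. That of miR-34a lies at chr4:150068473-150068494 on the plus strand. miR-449a, miR-34a and miR-34b-5p share the seed GGCAGUG, which 4 mature miRNAs of that RefSeq set carry, while the opposite arms miR-34b-3p and miR-34c* share the seed AUCACUA.
miR-449a: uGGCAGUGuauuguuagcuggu
miR-34a: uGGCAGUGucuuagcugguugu
miR-34b-5p: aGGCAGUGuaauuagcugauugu
miR-34b-3p: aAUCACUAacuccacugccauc
miR-34c*: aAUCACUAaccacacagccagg

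The inflammatory and epithelial miRNAs follow in the same notation. That of miR-21 lies at chr11:86584120-86584141 on the minus strand, inside Vmp1, and that of miR-146b at chr19:46342790-46342811 on the plus strand. miR-146a and miR-146b share a seed, as do miR-141 and miR-200a, while miR-200b, miR-200c and miR-429 share the other seed of the miR-200 family.
miR-21: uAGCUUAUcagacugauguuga
miR-146a: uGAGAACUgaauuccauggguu
miR-146b: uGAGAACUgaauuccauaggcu
miR-155: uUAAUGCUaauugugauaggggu
miR-141: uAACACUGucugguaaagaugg
miR-200a: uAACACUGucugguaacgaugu
miR-200b: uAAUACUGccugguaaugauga

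The remaining set holds the blood-cell and muscle miRNAs and miR-33, whose values move with slide or with group below. miR-144 and miR-451 come from hairpins 99 bases apart on the same strand, at chr11:78073047-78073066 and chr11:78073186-78073207, and miR-33 lies inside Srebf2.
miR-144: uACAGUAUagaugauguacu
miR-451: aAACCGUUaccauuacugaguu
miR-223: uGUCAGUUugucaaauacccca
miR-133b: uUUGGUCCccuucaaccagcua
miR-33: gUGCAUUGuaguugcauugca

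The 13 arrays came from 3 slides, each with 2 control and 2 or 3 exposed arrays, and the labels place slide 3 in a hybridisation block of its own. Between 185 and 270 miRNAs were present on an exposed array and between 187 and 226 on a control array. Slide 3 stood apart on the first principal component, 45.2% of the variance, which separated its 4 arrays from the other 9. Its 2 exposed arrays had 267 and 270 miRNAs present against 206 and 217 on its 2 control arrays. These counts do not set it apart, since exposed array 3 on slide 1 had 264. For each of the 13 arrays, the array most like it was of the same group and on the same slide. Results are therefore given with the slide as a fixed block and within each slide where these change a call. In whole-lung RNA, fewer cells of a type and less RNA per cell cannot be told apart. The number of arrays limits the precision, and levels of different miRNAs are not compared because each probe has its own response.

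Without a slide term, 5 of 214 miRNAs changed, which is 2.34%, and all 5 were higher after nanoTiO2: miR-449a, miR-135b, miR-34c, miR-21 and miR-34b-5p. All 5 differed by more than 1.2-fold. Scaled to the 75th percentile of all miRNAs, which moved the median of all differences from −0.03 to −0.15, the fit called 3, of which 2 were higher and 1 lower. At an unadjusted p below 0.05 there were 37, 17 higher and 20 lower. Over all 214 miRNAs the median difference, exposed minus control, was −0.03 on the log2 scale, with 77 higher and 137 lower and a range from −0.48 to 1.49. With the slide as a fixed block, 27 changed (12.6%), of which 13 were higher (6.07%) and 14 lower (6.54%), and the 5 were among them. The split of higher and lower moved with the scaling, to 13 higher and 5 lower when background-subtracted signals were scaled to the 75th percentile of the detected miRNAs. The median standard error fell from 0.0740 to 0.0518 log2 units. All 27 had the same direction on all 3 slides, as had 49.1% of the 214 tested. The blocked fit rests on these within-slide differences, so agreement between slides is no separate evidence for the 27. The groups did not overlap for 2 of 214 miRNAs (0.935%), miR-449a and miR-135b, of which miR-135b entered the 214 through exposed arrays alone.

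**Figure D1:**
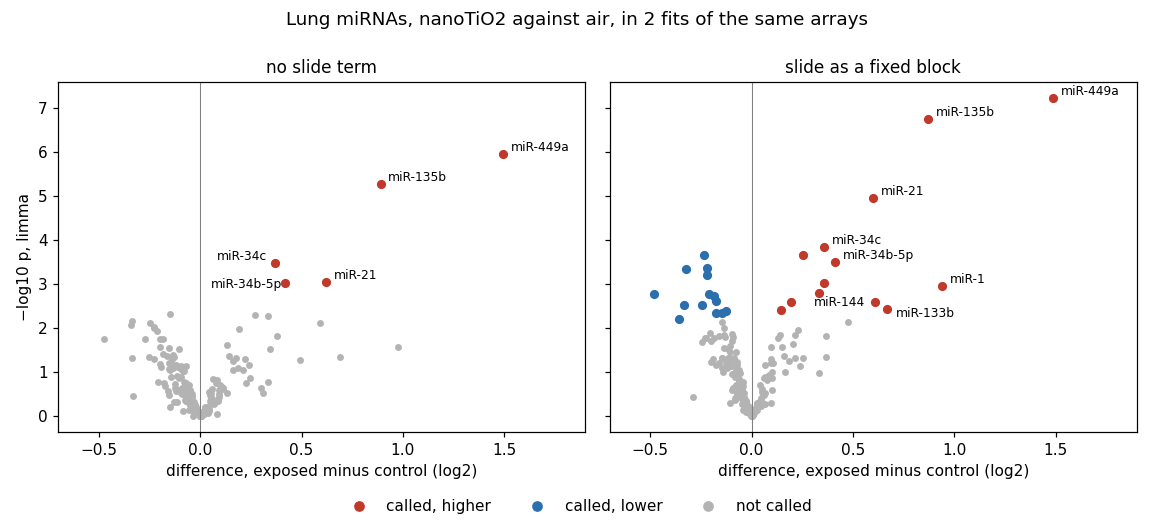
Each point is 1 of 214 lung miRNAs, with the exposed minus control difference (log2) on the horizontal axis and −log10 of the unadjusted limma p on the vertical axis, fitted without a slide term (left) and with slide as a fixed block (right). Coloured points passed an adjusted p of 0.05: 5 higher and 0 lower on the left, 13 higher and 14 lower on the right.

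In the deposited values, which keep their background, the miR-34 and miR-449 group held the largest difference among the miRNAs tested, while on background-subtracted signals scaled to the 75th percentile of the detected miRNAs miR-135b differed by more than miR-449a (3.93 against 1.95). That scaling raised signals below a set floor to the floor. miR-135b was not present on any control array, so its size there can depend on the floor. The log2 signal of miR-449a ran from 8.24 through a median of 8.74 to 9.45 on the exposed arrays and from 7.08 through 7.28 to 7.53 on the control arrays. Every exposed array was above every control array. The means were 8.78 ± 0.45 (SD, n = 7) and 7.29 ± 0.18 (SD, n = 6), a difference of 1.49 ± 0.18 (SE) or 2.82-fold, with a 95% interval from 1.11 to 1.88 and an adjusted p of 0.00024. An exact two-sided permutation test over the 1716 divisions of the arrays gave p = 0.000583, the smallest it can give. Within slides 1, 2 and 3 the difference was 1.26, 2.08 and 1.17.

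miR-34b-5p and miR-34c, which come from neighbouring hairpins, rose by smaller amounts. miR-34c had log2 signals of 9.83, 10.08 and 10.33 (lowest, median and highest) on exposed arrays and 9.55, 9.74 and 9.88 on control arrays. Of the 7 exposed arrays, 6 were above every control array. The difference was 0.37 ± 0.08 (SE), 1.29-fold, with an adjusted p of 0.0241. In limma fits of single probes, on quantile-normalised scanner signals, its 2 probes did not pass (adjusted p of 0.14 and 0.0629). miR-34b-5p had 10.46, 10.55 and 10.87 on exposed arrays against 9.86, 10.25 and 10.46 on control arrays, and again 6 of 7 exposed arrays lay above every control array. Its difference was 0.42 ± 0.10 (SE), 1.33-fold, with an adjusted p of 0.0413. In the limma fit of single probes, its 2 probes had adjusted p of 0.0374 and 0.0894. Both miRNAs were higher on all 3 slides, by 0.23, 0.60 and 0.27 for miR-34c and by 0.16, 0.52 and 0.60 for miR-34b-5p. These calls were less firm than that of miR-449a: of the 13 fits that each left out 1 array, miR-449a passed in 13, miR-34c in 9 and miR-34b-5p in 3. The call of miR-34c was lost without exposed array 1 or 13 or control array 10 or 20, where its adjusted p reached up to 0.0802. The call of miR-34b-5p was lost without exposed array 1, 3, 9, 13, 17 or 18 or control array 8, 10, 12 or 20, where its adjusted p reached up to 0.125, and without slide 3 it was 0.22.

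The other measured members of the group did not pass the test. miR-34a, which has the seed of miR-449a but a locus of its own and is best known as a target of p53, had 8.78, 8.92 and 9.10 on exposed arrays and 8.88, 9.02 and 9.19 on control arrays. The groups overlapped, and the difference was −0.13 with a 95% interval from −0.28 to 0.01 and an adjusted p of 0.315. The opposite arms of the miR-34b and miR-34c hairpins differed by 0.13 (95% interval −0.13 to 0.39) for miR-34b-3p and by 0.11 (−0.09 to 0.31) for miR-34c*, with adjusted p of 0.603 and 0.59. miR-449b and miR-449c, also of the miR-449 family, were present on 0 arrays and were not tested. Of 8 members on the array, 6 were tested, of which 5 were higher and 3 of those passed, and the median difference was 0.25 against −0.03 for all 214.

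**Figure D2:**
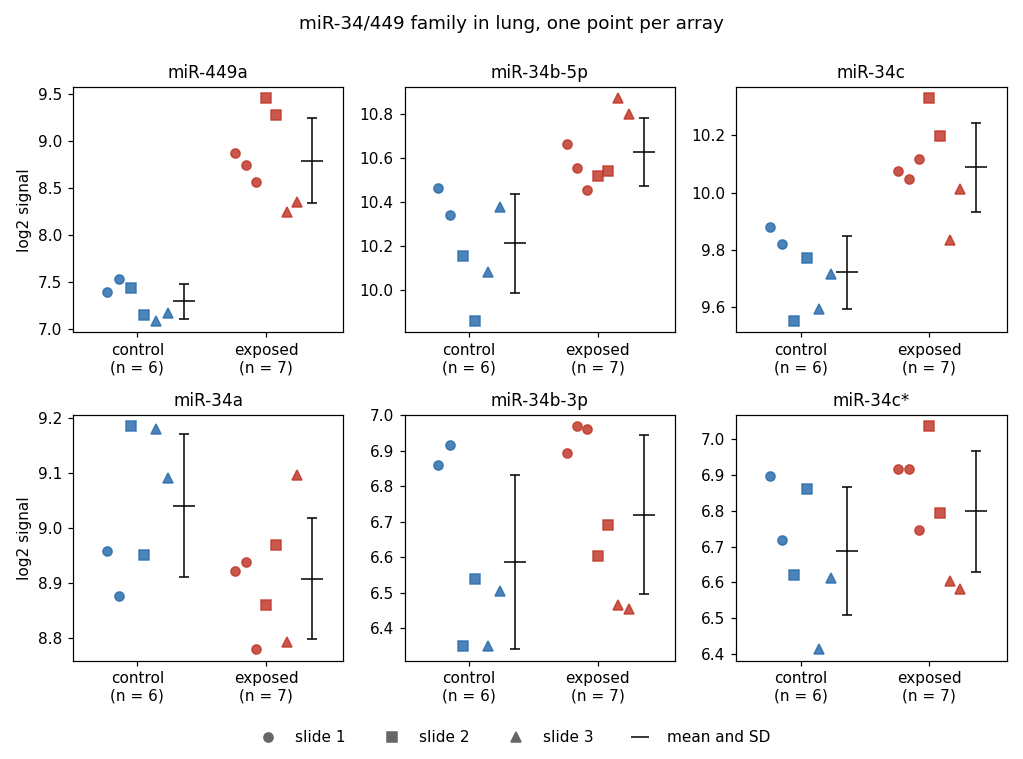
Log2 signal of 6 miRNAs of the miR-34 and miR-449 group on each of 6 control and 7 exposed arrays, with marker shape giving the slide and bars the mean and SD. The exposed arrays of miR-449a sit between 8.24 and 9.45 and the control arrays between 7.08 and 7.53, while those of miR-34a overlap.

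miR-135b and miR-21 were the other 2 that rose. miR-135b, a miRNA studied mainly in epithelial cancers, had log2 signals of 6.07, 6.65 and 6.88 on exposed arrays and 5.58, 5.70 and 5.73 on control arrays. It was present on 7 of 7 exposed and 0 of 6 control arrays, so its control level is only bounded. Against the lowest signal counted as present on each control array, averaged over the control arrays, it was at least 1.69-fold higher in the exposed lungs, with an adjusted p of 0.000579 for the measured difference of 0.89 ± 0.12 (SE). It met the present filter through the exposed arrays alone. With every mouse miRNA tested and no filter, its adjusted p in limma was 0.00287. The difference was 1.04, 1.03 and 0.51 on slides 1, 2 and 3, and the call held in 13 of 13 fits that left out 1 array. The size depends on background: on background-subtracted signals scaled to the 75th percentile of the detected miRNAs, the log2 difference was 3.93. Signals below a set floor were raised to the floor in that scaling, so this size can depend on the floor and is not a measured fold. The related miR-135a* differed by 0.09, and miR-135a was present on 0 arrays.

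miR-21, which is induced in inflammation and fibrosis in many tissues, had 12.49, 13.00 and 13.33 on exposed arrays and 12.00, 12.36 and 12.67 on control arrays. Of 7 exposed arrays, 6 were above every control array. The difference was 0.62 ± 0.15 (SE), 1.54-fold, with a 95% interval from 0.30 to 0.93 and an adjusted p of 0.0413. It was 0.35, 0.95 and 0.55 within slides 1 to 3. With the slide as a block the adjusted p was 0.000814. Without the block the call held in 4 of 13 fits that left out 1 array. It was lost without exposed array 1, 3, 7, 9 or 13 or control array 10, 12, 20 or 23, where the adjusted p reached up to 0.125. In the limma fit of single probes without the block, the 2 miR-21 probes had adjusted p of 0.00832 and 0.0629.

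The inducible miRNAs of inflammation did not all change. miR-146b, which targets adaptors of Toll-like receptor signalling, had 7.29, 7.56 and 7.71 on exposed arrays and 7.00, 7.24 and 7.33 on control arrays, a difference of 0.27 ± 0.08 (SE). The groups overlapped, and the adjusted p was 0.145 without and 0.008 with the slide as a block. In the limma fit of single probes without the block, the 2 miR-146b probes had adjusted p of 0.292 and 0.0117. miR-155, which is induced in activated macrophages and lymphocytes, had 6.28, 6.37 and 6.63 against 6.08, 6.24 and 6.37, and its difference of 0.19 had an adjusted p of 0.148 without and 0.0294 with the block, or 0.0699 with the hybridisation block. Both were higher on all 3 slides. miR-146a, with the seed of miR-146b, differed by 0.05 (95% interval −0.07 to 0.18, adjusted p = 0.637), and miR-132 by −0.04. miR-212 cannot be read across slides: it was between 9.26 and 10.29 on the 4 arrays of slide 3 and between 7.16 and 7.58 on the other 9, with both groups on each side of that gap. Of 6 tested in this list, 4 were higher and 2 lower, 1 passed without the block and 3 with it, and the median was 0.12. miR-147 was present on 0 arrays and was not tested.

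Among the 5 epithelial miRNAs of the miR-200 family, the median difference was −0.03 and 0 passed without the block. miR-141 had 9.46, 9.84 and 10.13 on exposed arrays and 9.07, 9.42 and 9.73 on control arrays. The groups overlapped, with a difference of 0.38 ± 0.14 (SE) and an adjusted p of 0.184 without the slide and 0.0187 with it. The other 4 differed by little: miR-200a by −0.03 (95% interval −0.16 to 0.10), miR-200b by −0.03 (−0.26 to 0.20), miR-200c by −0.04 (−0.25 to 0.17) and miR-429 by 0.10 (−0.06 to 0.25), and the signs of miR-200a, miR-200b and miR-200c turned under other scalings. miR-200c comes from a hairpin 336 bases from that of miR-141.

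**Figure D3:**
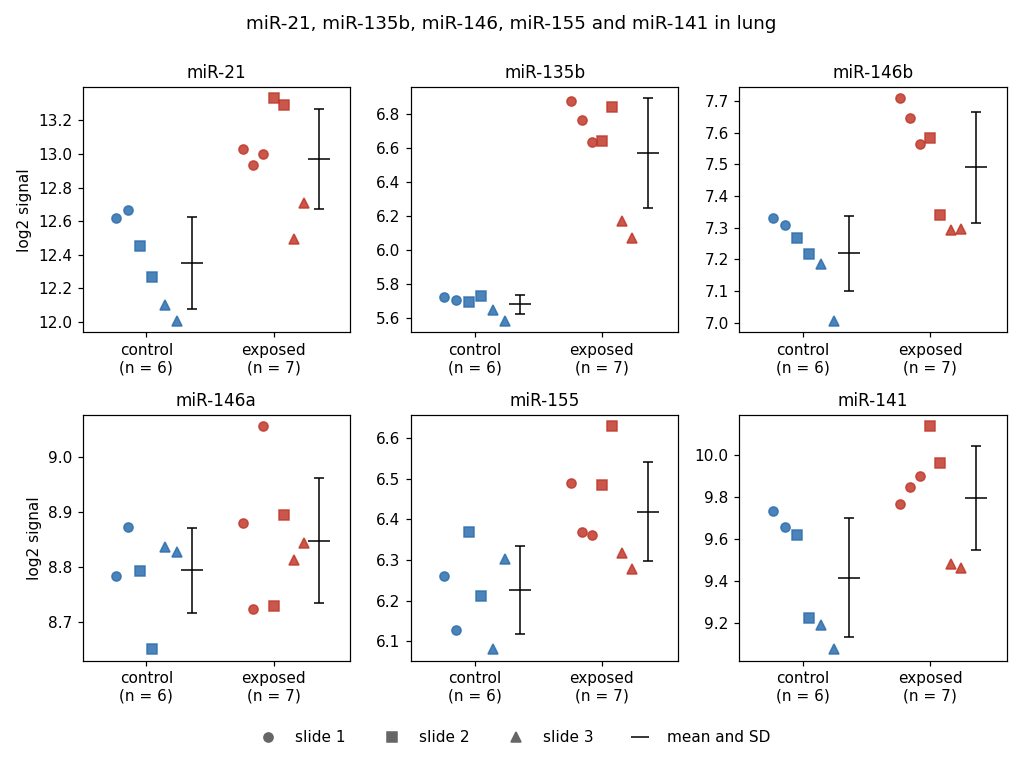
Log2 signal of miR-21, miR-135b, miR-146b, miR-146a, miR-155 and miR-141 on each of 6 control and 7 exposed arrays, with marker shape giving the slide and bars the mean and SD. miR-135b has no overlap between groups, and on slide 3 both miR-21 groups lie below their counterparts on the other slides.

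The 3 muscle miRNAs tested had higher means in exposed lungs, varied widely within each group, and 0 of them passed without the block. miR-1, a heart and skeletal muscle miRNA, had log2 signals of 7.80, 8.80 and 9.89 on exposed arrays and 6.78, 7.83 and 8.70 on control arrays. Of 7 exposed arrays 5 lay above every control array, and the 2 highest were on slide 3. The difference was 0.97 ± 0.39 (SE), 1.96-fold, with an adjusted p of 0.237, and with the slide as a block it was 0.94 ± 0.22 (SE) with an adjusted p of 0.0201. Within slides it was 0.47, 0.73 and 1.72. miR-133b, which is processed from a hairpin next to that of miR-206, differed by 0.69 ± 0.31 (SE), with an adjusted p of 0.278 without and 0.0356 with the block. These blocked calls depend on the block: with the hybridisation block in place of the slide the adjusted p was 0.0809 for miR-1 and 0.125 for miR-133b, and with the slide as a random block that of miR-133b was 0.0521. miR-133a differed by 0.49 ± 0.23 (SE), with adjusted p of 0.289 and 0.0541, and with the slide block it passed without exposed array 7 (0.0491), control array 6 (0.0355) or control array 10 (0.0421). The cardiac miR-208a was present on 2 exposed and 0 control arrays, miR-208b and miR-133a* on 2 exposed and 1 control array each, and miR-206 and miR-499 on 0 arrays. Of 8 muscle miRNAs on the array, 3 were tested, and the median of those was 0.69.

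The miRNAs of blood cells did not move together. miR-144, which red cell precursors express in large amounts, had 9.85, 10.27 and 10.86 on exposed arrays against 8.95, 9.72 and 10.09 on control arrays. The groups overlapped. Its difference was 0.59 ± 0.19 (SE), 1.51-fold, with an adjusted p of 0.148 without and 0.0294 with the block, and it was 0.65, 0.53 and 0.65 within slides. miR-451, from the neighbouring hairpin, had 12.44, 12.78 and 13.46 against 12.58, 13.03 and 13.24. Its difference was −0.13 (95% interval −0.50 to 0.24), with 0.19, −0.62 and 0.06 within slides, so its sign differed between slides. miR-486, the third red cell miRNA, differed by −0.20 with an adjusted p of 0.315.

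miR-223, a miRNA of neutrophils and other myeloid cells, had the lowest of all 214 differences. The study reports that its PCR did not bear out a lower miR-223. It had 8.48, 9.05 and 9.41 on exposed arrays against 9.09, 9.38 and 10.04 on control arrays, and the groups overlapped. The difference was −0.48 ± 0.18 (SE), with an adjusted p of 0.184 without and 0.0244 with the block, and it was −0.27, −0.78 and −0.44 within slides. The leukocyte miRNAs miR-142-3p and miR-142-5p differed by 0.30 (adjusted p = 0.588) and 0.07, and miR-142-3p was 0.24, 0.59 and −0.12 within slides.

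**Figure D4:**
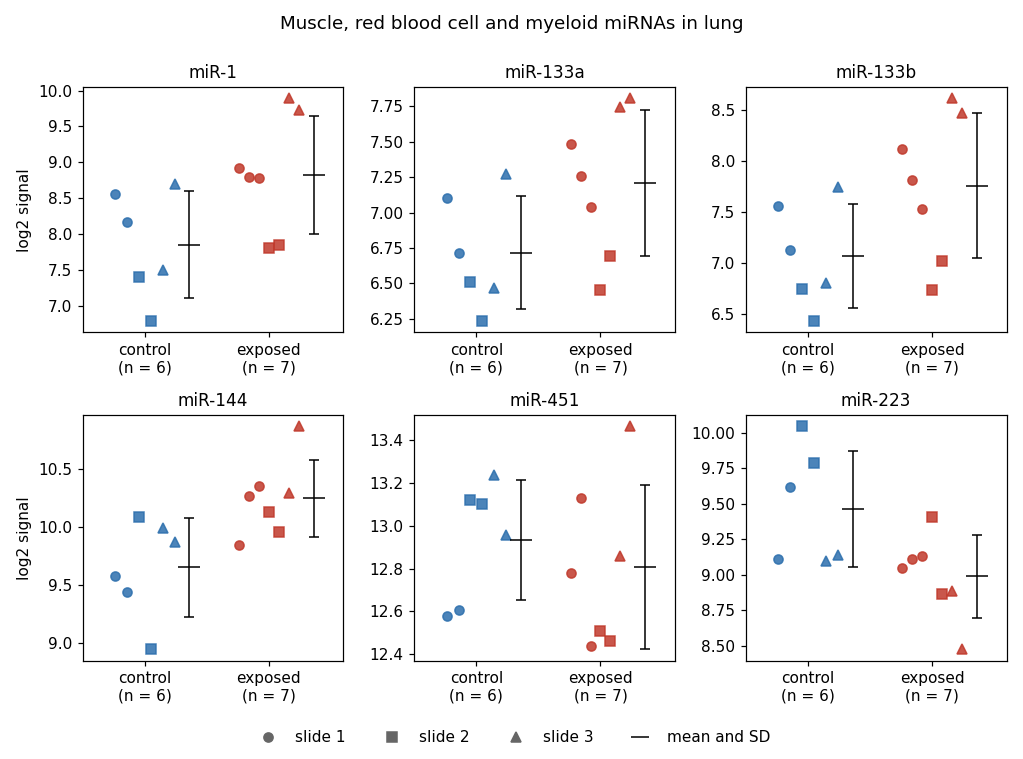
Log2 signal of the muscle miRNAs miR-1, miR-133a and miR-133b, the red cell miRNAs miR-144 and miR-451 and the myeloid miR-223 on each of 6 control and 7 exposed arrays, with marker shape giving the slide and bars the mean and SD. For miR-1 the exposed arrays run from 7.80 to 9.89 and the control arrays from 6.78 to 8.70, with the highest arrays on slide 3.

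Of the 27 that passed with the slide as a block, 11 remained in every one of 13 fits that left out 1 array: miR-449a, miR-135b, miR-21, miR-34b-5p, miR-34c, miR-141 and miR-146b among the higher, and miR-10a, miR-342-3p, miR-365 and miR-652 among the lower. Without the 4 arrays of slide 3 the blocked fit called 6 miRNAs, miR-449a, miR-135b, miR-21, miR-34c, miR-1 and miR-146b. The other 16 passed in between 3 and 11 of the 13 fits, with miR-1 in 11, miR-33 in 10, miR-223 in 9, miR-144 in 7 and miR-155 and miR-133b in 6 each. The blocked count was 14, 16 and 11 without exposed array 9, 17 or 18 and 12 and 13 without control array 12 or 23. With the slide as a random block 23 of the 27 passed, without miR-133b, miR-136, miR-423-5p and miR-99b. With the hybridisation block 19 passed, without miR-1, miR-133b, miR-136, miR-155, miR-151-5p, miR-195, miR-342-3p and miR-720. In limma fits of single probes with the slide block, 0 of 2 probes passed for miR-92a, miR-136 and miR-720. It was 1 of 2 for let-7d, miR-10a, miR-24, miR-33, miR-133b, miR-195, miR-214, miR-423-5p and miR-652. For the rest of the 27 it was 2 of 2. The lower calls had small differences. miR-342-3p, encoded in the gene Evl, differed with the block by −0.33 with an adjusted p of 0.0108, and it was −0.24, −0.25 and −0.50 within slides. miR-365 differed by −0.24 (adjusted p = 0.008), miR-652 by −0.22 (0.0108) and miR-10a, from a Hox gene cluster, by −0.22 (0.013). miR-92a of the miR-17 cluster differed by −0.33 (0.0312), and the let-7 member let-7d by −0.21 (0.0244). The remaining 8 lower calls, miR-223, miR-720, miR-151-5p, miR-195, miR-24, miR-99b, miR-214 and miR-423-5p, included miR-223, described above, and miR-720 (−0.36), and the other 6 differed by between −0.25 and −0.13. Among the higher, miR-33 had 6.45, 6.65 and 6.86 on exposed arrays and 5.85, 6.38 and 6.49 on control arrays, with a blocked difference of 0.33 and an adjusted p of 0.0244. miR-136 differed by 0.15 (0.0356) with the block, and it was present on 7 of 7 exposed and 3 of 6 control arrays. miR-193 differed by 0.35 with adjusted p of 0.237 without and 0.0826 with the block. Without control array 10, which lay far above the other control arrays, it differed by 0.47 (adjusted p = 0.0389), or by 0.48 with the block (adjusted p = 0.00912). Of 13 fits that left out 1 array, miR-193 passed in this 1 alone, without as with the block. Control array 10 stood out by its miR-193 value itself, so this pass is no independent support.

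**Figure D5:**
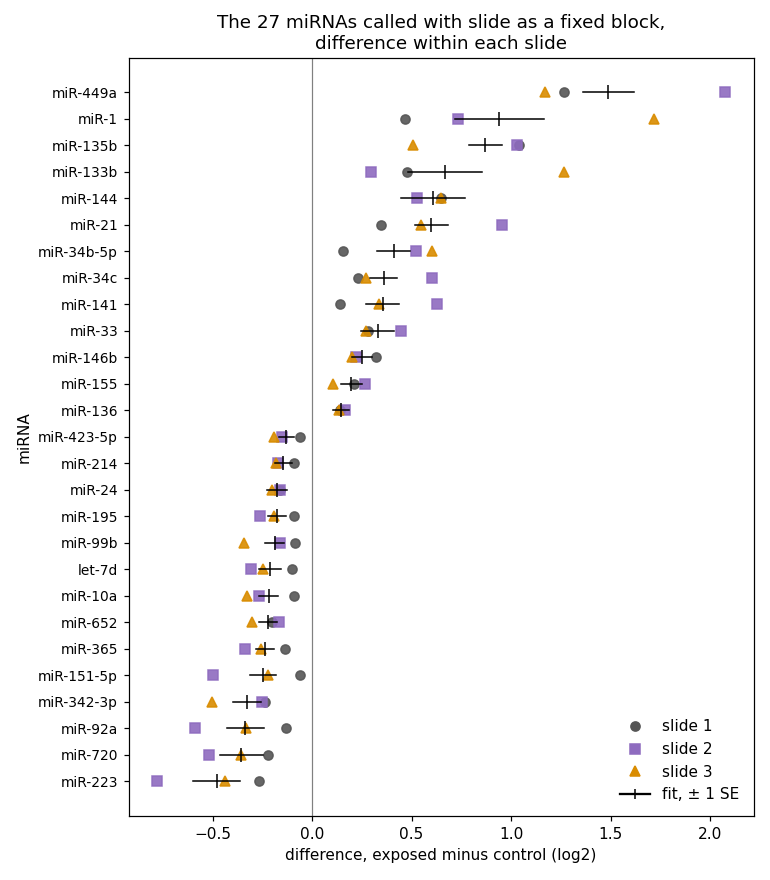
Exposed minus control difference (log2) of the 27 miRNAs that passed with the slide as a fixed block. Small markers give the difference within each of 3 slides, and the point with its bar gives the blocked fit ± 1 SE. All 27 lie on the same side of 0 on all 3 slides, and they were chosen by the fit to these same differences.

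Further groups are given by count. All 3 lymphocyte miRNAs were lower, with a median of −0.12 and 0 passing in either fit. Of 11 miRNAs of the miR-17 cluster and its paralogues, 2 were higher and 9 lower (median −0.05), with miR-92a the one that passed with the block. Of 9 let-7 miRNAs, 2 were higher and 7 lower (median −0.10), with let-7d the one that passed with the block. The 2 endothelial miRNAs (median 0.08), the 2 of smooth muscle and fibroblasts (0.13), 3 of the miR-29 family (0.09) and 5 of the miR-30 family (−0.08) had 0 that passed. As a check on tissue, miR-124, miR-9, miR-216a and miR-217, which mark brain and pancreas, were present on 0 arrays. The liver miRNA miR-122 was present on all 13, from 6.07 to 7.67 on exposed and from 6.39 to 8.10 on control arrays, with a difference of −0.33 and an adjusted p of 0.615. The 16 miRNAs that the study lists were chosen on these arrays and are no independent evidence of direction. They are only those of its significant miRNAs that differed by more than 1.2-fold, so its own count is larger. By PCR the study reports higher miR-449a, miR-1 and miR-135b, with by far the largest rise for miR-135b, but not the lower miR-223 and miR-92a. Of the 16 listed, 12 were higher and 4 lower on the arrays (median 0.40), 5 passed without and 14 with the block.

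Messenger RNA arrays of the same exposure, of 7 exposed and 6 control lungs, gave values for cell-type markers beside the miRNA groups. They carried 2-colour log2 ratios against a common reference, and 85 of 41172 probes changed, which is 0.206%. Of the sample numbers, only those of exposed lungs 1, 7 and 13 occur on both the mRNA and the miRNA arrays and no control number does, so no value was paired. The 21 heart and skeletal muscle genes were higher for 17 and lower for 4, with 0 passing and a median difference of 0.39. All 4 lower genes, Acta1, Tnnt3, Mylpf and Myl2, had their highest value on control array 34. All of the higher genes but Nppa had their lowest value on control array 27. The median over the 21 genes ran from 0.84 to 3.21 on exposed arrays and from 0.19 to 3.05 on control arrays. With normexp background correction the median difference was −0.02. A background model had been found to fail on some of these mRNA arrays, so the main values used none. The part of muscle tissue in the differences of miR-1, miR-133a and miR-133b was not tested. The 13 ciliated airway genes on the array were all higher, with 0 passing and a median of 0.20 that became −0.30 with normexp. Foxj1, the regulator of motile cilia, differed by 0.24 (adjusted p = 0.288) and Dnahc9, a dynein of motile cilia, by 0.38 (adjusted p = 0.347). The 9 red blood cell genes had a median of −0.04 and the 12 neutrophil genes one of −0.18. The part of a changed number of ciliated cells in the miR-34 and miR-449 differences was not tested.

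For 11 genes whose loci hold these miRNAs, the same arrays gave the level of the surrounding gene, and 0 passed without a slide term. Srebf2, a regulator of cholesterol synthesis around miR-33, differed by 0.22 with an adjusted p of 0.194, or 0.0435 with the slide as a block, a fit in which 86 of 41172 probes passed (0.209%). Vmp1, around miR-21, differed by 0.13 (adjusted p = 0.716), and Evl, around miR-342-3p, by −0.02. Cdc20b, around miR-449a, is not named on that array.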

How the data were processed

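RNA from left lung sections was labelled with Cy3 and hybridised to Agilent 8x15K mouse miRNA arrays. The authors extracted signals with Feature Extraction (version 9.5.1.1 per the file headers), used median signals without background subtraction, quantile-normalised them and took the median over probes, and deposited log2 values. These were used as the main values. Differences of dim miRNAs are therefore understated. Deposited intensity values of the scanner (12493 spots per array, 288 negative controls) gave the present calls and correlated with the deposited log2 values at 0.995 to 1.00. The authors left out arrays after quality control, and which of these 13 they tested is not settled from the sources used here.

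Groups came from the labels. Exposed minus control was fitted in R 4.3.3 with limma 3.58.1 (lmFit, eBayes), and p-values were adjusted by Benjamini-Hochberg over the 214 miRNAs. The present threshold ran from 48.1 to 73.5 (median 56.3). Slide came from the array number of each file. Control array 23 is labelled Cy5 in place of Cy3 and was read like the others. Exact two-sided permutation tests used single miRNAs. Alternatives covered scaling, background, filter, slide, hybridisation block, single probes, a test with each miRNA's own spread, and leaving out each array. The study's probe-level model with a random sample effect was not run. Named miRNAs are every member of the ciliated airway, muscle, red cell, myeloid, inflammation, epithelial, miR-135 and study lists, and those called. The members and lists were chosen with earlier results of these data known, and miRNAs called only with the slide block were named after their values were seen. Each array is a separate mouse. The 2-colour mRNA arrays were read as log2 Cy5 over Cy3 from the deposited median intensity values without background subtraction, after loess within arrays, and correlated with the deposited log2 ratios at 0.994 to 0.997. RefSeq sequences were matched through current miRNA names. The fits were tested on simulated data.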

Additional observations from a re-analysis of the deposited data

Results flagged for a closer look

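Within the groups of named miRNAs, 66 were searched for a single array far from the rest of its group, of which chance picks out about 1 in 20, and 3 had one. The log2 signal of miR-193 was 8.55 on control array 10, while the other control arrays lay between 7.60 and 7.95. Without that array miR-193 passed in limma (difference 0.47, adjusted p = 0.0389), and without any other single array it did not. miR-200a was 9.91 on exposed array 13 against 10.12 to 10.20 on the other exposed arrays. miR-33 was 5.85 on control array 12 against 6.33 to 6.49 on the other control arrays.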

How the results depend on the processing

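The count of 5 changed miRNAs was 2 with signals scaled to the 75th percentile of the detected miRNAs, 3 with the 75th percentile of all, 2 when every one of the 560 miRNAs was tested and 2 with each miRNA's own spread in place of limma's moderated one. It was 27 with the slide as a fixed block, 23 with the slide as a random block (consensus correlation 0.512) and 19 with the hybridisation block. Leaving out each array in turn gave between 2 and 5 without the slide and between 11 and 34 with it. Counting a miRNA where any of its probes passed without the slide gave 5, with miR-146b in place of miR-34c. Without slide 3, left out after seeing the data, the blocked count was 6. The ciliated airway gene median on the mRNA arrays was −0.30 with normexp background correction, and a background model had been found to fail on some of those arrays. The cause of these changes was not tested. Signs turned for small differences: miR-146a was −0.0018 at the 75th percentile of all. miR-200a was 0.10 with scanner signals, 0.10 with normexp, 0.16 at the 75th percentile of the detected and 0.0836 at that of all. miR-200b was 0.0402 at the 75th percentile of the detected and 0.0016 without slide 3 with the slide block. miR-200c was 0.0028 at the 75th percentile of the detected, 0.0227 without slide 3 and 0.0520 without slide 3 with the slide block. miR-212 was 0.10 with slide as a fixed block, 0.0739 as a random block and 0.0900 with the hybridisation block. Leaving out 1 array gave −0.0189 to 0.12 for miR-142-5p, −0.0635 to 0.0024 for miR-200a, −0.0728 to 0.0277 for miR-200b, −0.10 to 0.0012 for miR-200c and −0.41 to 0.33 for miR-212. Over all alternatives, 849 values of single miRNAs kept their direction and side of the threshold, or moved by less than the spread between arrays, 30 came to pass the threshold, 37 ceased to, 27 changed sign and 11 moved by more than that spread. No paired analysis was possible because the exposed and control mice carry different numbers. Signals near the present threshold limit the size of a fold, as for miR-135b.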

Other observations

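The arrays also carry probes for miRNAs of a murine herpesvirus. mghv-miR-M1-2 was present on 6 of 7 exposed and 6 of 6 control arrays, mghv-miR-M1-7-3p on 2 exposed and 1 control array, and mghv-miR-M1-9 on 2 exposed and 0 control arrays, while the other 7 were present on 0.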
